A study of Mus musculus with 20 samples.

Results

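The nuclear genes for the subunits of the mitochondrial respiratory chain were followed in hearts of db/db and db/+ mice. They were chosen by symbol, as the Nduf a, b, c, s and v genes of complex I, Sdha to Sdhd of complex II, the Uqcr genes and Cyc1 of complex III, Cox4 to Cox8 genes of complex IV, the Atp5 genes of complex V, and Cycs. The rule found 83 genes of the 11856 in the expression table: 35 of complex I, 4 of complex II, 9 of complex III, 18 of complex IV, 15 of complex V, Cycs for cytochrome c, and Atp5s, a factor coupled to the ATP synthase that was kept apart from its subunits. Ndufa4 and its paralog Ndufa4l2 were counted with complex IV, where the Ndufa4 protein sits. Heart tissue of 5 db/db animals and 5 db/+ animals, all C57BL/6, gave 20 libraries: poly(A) input RNA, and RNA enriched for N6-methyladenosine (m6A) by immunoprecipitation, from each heart. Mice with 2 db alleles have no functional receptor for leptin, overeat, and develop obesity with diabetes. The db/+ mice carry 1 db allele and were called wild type in the genotype label. Neither genotype carries a transgene in the labels. Age and sex were not used. The study set out to map m6A in diabetic cardiomyopathy against healthy heart.

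The respiratory chain moves electrons from NADH and succinate through complexes I and II to ubiquinone, on through complex III and cytochrome c to complex IV, where oxygen is reduced. The proton gradient built on the way drives complex V, the ATP synthase. Most subunits are encoded in the nucleus and imported, while a small core comes from the mitochondrial genome, and the heart, which beats without rest, is among the tissues richest in all of them. Several complex IV subunits and the c ring of complex V are encoded by more than 1 gene, with isoforms typical of heart and skeletal muscle beside ubiquitous ones.

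Expression was read as FPKM, a fragment number corrected for transcript length and library size, as deposited by the authors, so that levels of different genes can be compared per length. FPKM carries no read counts, and the depth of the libraries is unknown. Mitochondrial transcripts took 42.0% to 44.7% of the FPKM of a db/db input library and 33.5% to 43.3% of a db/+ one, the lowest being db/+ 5. General cardiomyocyte markers were high in every heart, with a sum over 8 genes of 8579 to 9558 FPKM in db/db hearts and 9578 to 11977 FPKM in db/+ hearts, and 2 of the 8 were called lower. White adipocyte markers summed to 5.601 to 49.9 FPKM in db/db hearts and 15.2 to 171 FPKM in db/+ hearts, with 1 of 5 called lower. The brown adipocyte markers Ucp1 and Cidea gave sums between 49.4 and 73.2 FPKM in db/db hearts and between 34.7 and 175 FPKM in db/+ hearts, with none called and the top values in db/+ 3 and db/+ 5. The 3 skeletal muscle markers in the table stayed at or below 4.21 FPKM in sum, and fibroblast, endothelial, macrophage, smooth muscle, erythroid and atrial lists held no called gene. Erythroid sums nevertheless varied widely, from 205 to 3939 FPKM in db/db hearts and from 197 to 1464 FPKM in db/+ hearts. Atrial sums ran from 1273 to 3104 FPKM in db/db hearts and from 1271 to 2568 FPKM in db/+ hearts. In such bulk samples, fewer cells of a type and less RNA per cell cannot be told apart. The part of these markers in the results was not tested.

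All 83 genes reached the filter, a mean of 1 FPKM or more, and so were tested among 10344 genes. They ranked high: 8 were among the 50 genes with the highest mean FPKM, 25 among the first 100 and 75 among the first 500. The subunit genes together took 5.603% to 6.24% of the FPKM of a db/db library and 6.12% to 7.42% of a db/+ library. Cox6a2, the muscle isoform of a small complex IV subunit, had the highest mean level over the 10 hearts with 1024 FPKM, ahead of Atp5a1, the alpha subunit of the F1 motor, with 816 FPKM. At the other end stood 3 isoforms typical of other tissues or states: Cox6b2, the testis isoform, with 1.07 FPKM, Ndufa4l2, a paralog known as a hypoxia target, with 8.71 FPKM, and Cox4i2, the lung isoform, with 9.56 FPKM. The lowest gene that is not such an isoform was Atp5s with 10.2 FPKM, followed by Ndufb2, a small membrane-arm subunit of complex I, with 21.3 FPKM. Levels within a complex spanned a wide range: complex I ran between Ndufb2 and Ndufb9, an accessory subunit with 452 FPKM, around a median of 182 FPKM.

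Between genotypes, 1 of the 83 genes passed the test. Cox7a1, the heart and muscle isoform of complex IV subunit VIIa, was lower in db/db hearts, and no member was called higher. The background over all tested genes was 3.01% called, 1.29% higher and 1.72% lower (limma on log2(FPKM + 1), Benjamini-Hochberg adjusted p under 0.05). Differences were small throughout: the members' log2 fold changes, db/db minus db/+, lay between -0.29 and 0.14. Of the 83, 64 had a negative log2 fold change and 19 a positive one, with a median of -0.06. Over all tested genes 57.6% were negative, and the median was -0.03. With library medians set equal, 55 of the 83 were negative, around a median of -0.03, against a median of 0.0008 over all tested genes. In that fit 161 genes were called higher and 113 lower over the whole table, in place of 133 and 178. At an unadjusted p under 0.05, 10 members were lower and 1 was higher, against 11.9% of all tested genes lower and 7.33% higher.

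In 5 genes every db/db heart lay below every db/+ heart: Cox7a1, Cox6b1, Ndufs8, Ndufb7 and Uqcrc1. No member had the reverse pattern. Over all tested genes, 4.18% had all db/db hearts lower and 2.23% all db/db hearts higher, 6.41% in all. None of the 5 had this pattern with library medians or nuclear sums set equal. There 1 and 2 members were without overlap, all of them higher in db/db, and the share over all tested genes was not counted.

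**Figure D1:**
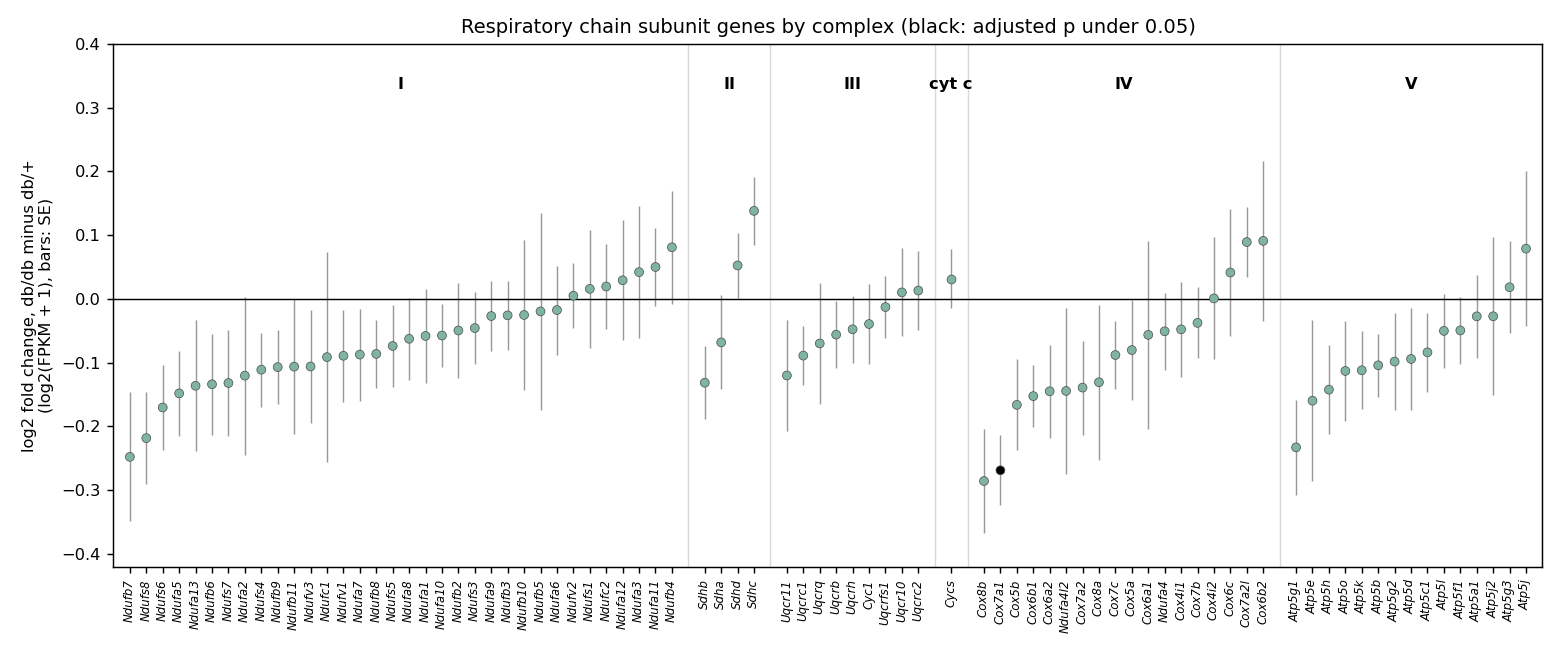
Log2 fold change (db/db minus db/+, on log2(FPKM + 1)) of subunit genes, grouped by complex and sorted within it, with standard errors as bars; Atp5s and 1 gene of complex I are not drawn. Cox7a1, in black, is the only gene with an adjusted p under 0.05, and most points of complexes I, IV and V lie below 0.

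Complex IV, cytochrome c oxidase, held the called gene and the gene with the next smallest p. Of its 18 genes, 14 had negative log2 fold changes, and the median was -0.08. Cox7a1 (ENSMUSG00000074218) spans chr7:30184144-30186078 on the plus strand in the authors' table, and Cox8b (chr7:140898945-140900446) lies on the minus strand of the same chromosome.

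Cox7a1 had 608, 557, 566, 618 and 624 FPKM in db/db hearts, against 704, 661, 733, 743 and 740 FPKM in db/+ hearts. The highest db/db heart lay below the lowest db/+ heart. Its means were 594 ± 31.0 FPKM in db/db hearts and 716 ± 34.5 FPKM in db/+ hearts (SD, n = 5 each), and Cox7a1 fell by 0.27 on the log2 scale (SE 0.055, limma adjusted p = 0.027). The call lay near the threshold: the limma adjusted p was between 0.022 and 0.074 with 1 library left out. It was above 0.05 without db/db 1 (0.062), db/db 2 (0.068), db/db 3 (0.074), db/+ 3 (0.070) or db/+ 4 (0.061). With library medians equal it was 0.081, and with the sums over nuclear genes equal 0.061, at log2 fold changes of -0.24 and -0.23.

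Cox8b, the heart and muscle isoform of subunit VIII, had the next smallest p. It had 658, 576, 657, 772 and 674 FPKM in db/db hearts, against 826, 795, 809, 719 and 916 FPKM in db/+ hearts. The groups overlapped through db/db 4 and db/+ 4. Its log2 fold change of -0.29 (SE 0.082) did not pass (limma adjusted p = 0.089), and it did with quantile normalization, at -0.24.

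Cox6b1, the ubiquitous isoform of the subunit that faces the intermembrane space near the cytochrome c site, had 670.5, 603, 652, 673 and 670.5 FPKM in db/db hearts, against 723, 705, 725, 714 and 765 FPKM in db/+ hearts. These values did not overlap, and the log2 fold change was -0.15 (SE 0.049, limma adjusted p = 0.12). Cox5b, a zinc-binding subunit on the matrix side, averaged 249.7 ± 22.7 FPKM in db/db hearts and 279.8 ± 17.1 FPKM in db/+ hearts (log2 fold change -0.17, adjusted p = 0.23). Cox6a2 had 945, 880, 966, 1074 and 996.5 FPKM in db/db hearts, against 996, 1124, 1046, 991 and 1225 FPKM in db/+ hearts. Its log2 fold change of -0.14 missed the threshold (adjusted p = 0.30), turned positive at 0.04 with quantile normalization, and the highest value was again that of db/+ 5.

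The partners of the muscle isoforms had lower levels and also lower means in db/db hearts, and none of them passed. Cox7a2, the ubiquitous counterpart of Cox7a1, averaged 280.5 ± 25.6 FPKM in db/db hearts and 308.6 ± 21.5 FPKM in db/+ hearts (log2 fold change -0.14, adjusted p = 0.33). Cox8a, that of Cox8b, averaged 129.6 ± 15.9 FPKM and 143.0 ± 26.7 FPKM in the same order (log2 fold change -0.13, adjusted p = 0.59). Cox6a1, that of Cox6a2, averaged 75.0 ± 5.46 FPKM in db/db hearts and 80.1 ± 23.2 FPKM in db/+ hearts, and 4 db/+ hearts at 63.7 to 79.8 FPKM stood apart from db/+ 5 at 120 FPKM. Its log2 fold change was -0.06 with all libraries and 0.10 without db/+ 5. For Cox8a, db/+ 5 was also the highest heart at 184 FPKM, with the other db/+ hearts at 120 to 155 FPKM.

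Cox4i1, the main isoform of a subunit that joins early in the assembly of the complex, showed the same library most plainly. It had 426, 431, 425, 443 and 447 FPKM in db/db hearts, against 424, 428, 425, 426 and 553 FPKM in db/+ hearts. Apart from db/+ 5, the 9 hearts lay within 424 to 447 FPKM. Its log2 fold change was -0.05 with all libraries and 0.03 without db/+ 5.

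Cox7a2l, also known as a supercomplex assembly factor, leaned the other way. It averaged 216.9 ± 7.16 FPKM in db/db hearts and 204.0 ± 12.5 FPKM in db/+ hearts, or 0.09 higher on the log2 scale (SE 0.055, adjusted p = 0.40). Without db/+ 5, the only db/+ heart inside the db/db range, the groups did not overlap. Ndufa4 averaged 208.2 ± 12.4 FPKM in db/db hearts and 215.6 ± 12.8 FPKM in db/+ hearts, while Cox4i2, Cox6b2 and Ndufa4l2 stayed low in both genotypes.

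**Figure D2:**
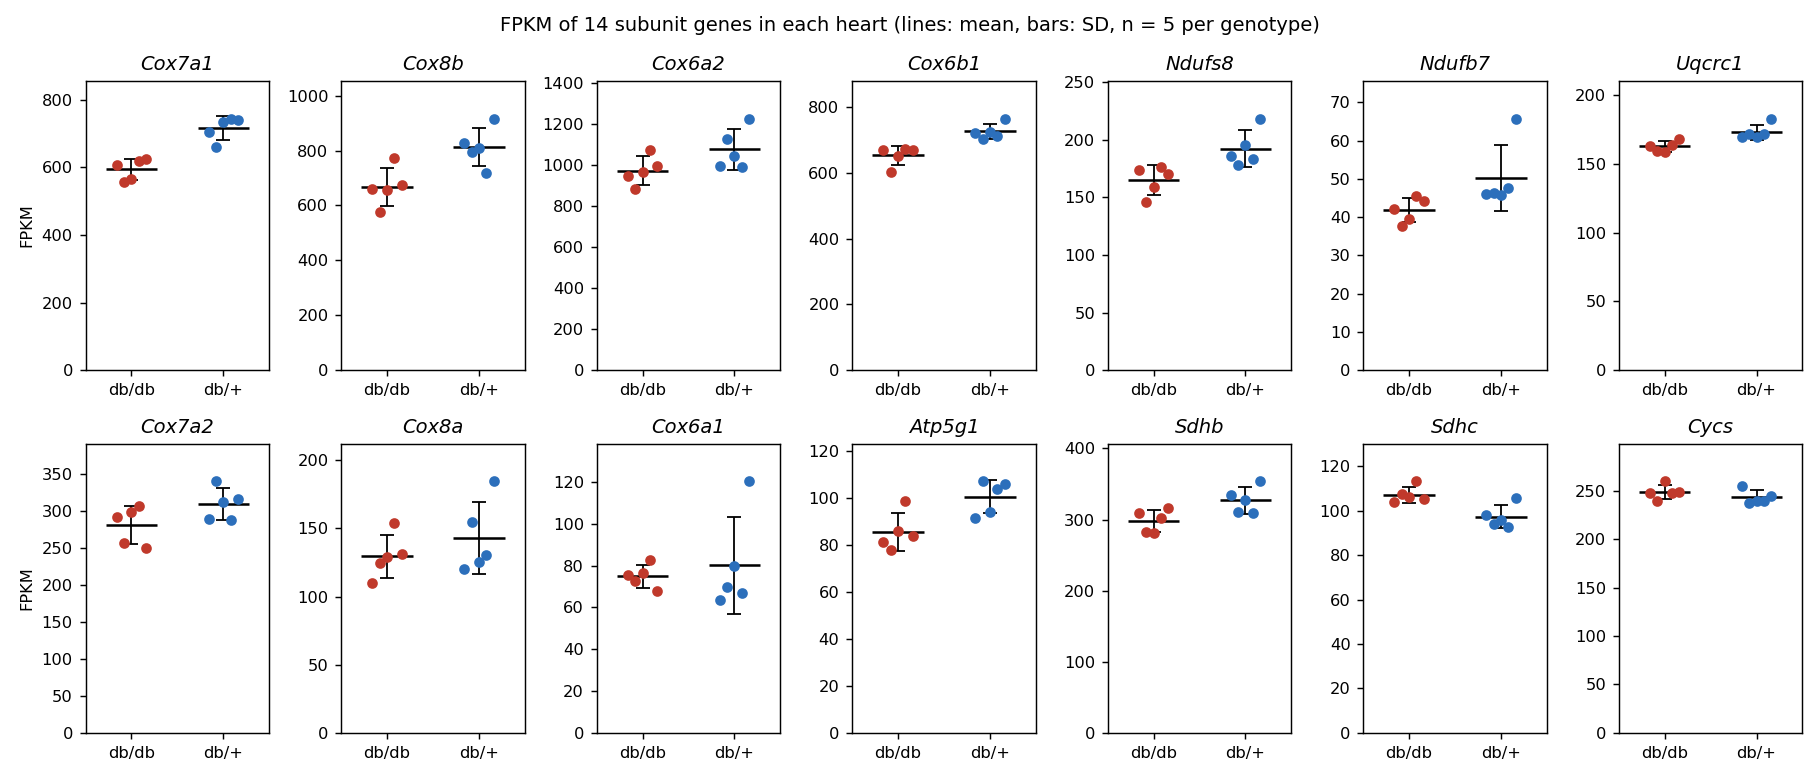
FPKM of 14 subunit genes in each heart, db/db left and db/+ right, with the mean as a line and the SD as a bar (n = 5 each). Cox7a1, Cox6b1, Ndufs8, Ndufb7 and Uqcrc1 do not overlap between genotypes, and the highest db/+ point of Ndufb7, Cox6a1 and Cox8a is db/+ 5.

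Promoters of Cox7a1 and Cox8b and of their ubiquitous partners are shown because these muscle isoforms had the smallest p-values of the set. They are RefSeq sequences of the GRCm38.p6 build, 5′ to 3′, 250 bases before to 50 after the gene's start. Capitals mark matches on either strand to 4 motifs: GCGC and TGCGC set 1 base apart for nuclear respiratory factor 1, CCGGAAG for the ETS family, TATAAA for the TATA box and CCAAT for the CCAAT box. None of these matches overlapped another. The windows are chr7:30183921-30184220 on the plus strand for Cox7a1, chr9:79759804-79760103 on the minus strand for Cox7a2, chr7:140900397-140900696 on the minus strand for Cox8b and chr19:7217567-7217866 on the minus strand for Cox8a.
Cox7a1: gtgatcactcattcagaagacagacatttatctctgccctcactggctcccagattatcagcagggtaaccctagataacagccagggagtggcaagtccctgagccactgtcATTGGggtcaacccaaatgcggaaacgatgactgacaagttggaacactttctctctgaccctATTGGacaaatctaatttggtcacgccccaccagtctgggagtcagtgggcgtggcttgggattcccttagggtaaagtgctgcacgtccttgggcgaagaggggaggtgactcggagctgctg
Cox7a2: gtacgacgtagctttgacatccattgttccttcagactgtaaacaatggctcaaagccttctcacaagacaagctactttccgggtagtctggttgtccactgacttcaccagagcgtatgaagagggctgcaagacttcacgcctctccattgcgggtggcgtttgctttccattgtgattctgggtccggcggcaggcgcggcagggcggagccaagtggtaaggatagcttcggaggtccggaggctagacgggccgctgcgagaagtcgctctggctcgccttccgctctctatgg
Cox8b: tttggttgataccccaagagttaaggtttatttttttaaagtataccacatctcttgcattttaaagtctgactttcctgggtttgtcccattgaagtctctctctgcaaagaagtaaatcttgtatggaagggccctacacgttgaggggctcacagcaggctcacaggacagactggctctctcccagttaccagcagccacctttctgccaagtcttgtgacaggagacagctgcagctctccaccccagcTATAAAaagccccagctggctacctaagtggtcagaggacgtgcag
Cox8a: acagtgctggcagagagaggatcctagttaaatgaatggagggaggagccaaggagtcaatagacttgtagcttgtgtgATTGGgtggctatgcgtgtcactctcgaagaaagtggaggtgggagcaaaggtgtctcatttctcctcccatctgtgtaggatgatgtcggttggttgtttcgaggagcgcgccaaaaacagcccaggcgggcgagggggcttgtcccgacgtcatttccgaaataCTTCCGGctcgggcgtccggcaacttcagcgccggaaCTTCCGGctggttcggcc

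Cox7a1 held 2 CCAAT matches and Cox8b 1 TATAAA match close to its start. Cox8a held 2 ETS matches and 1 CCAAT match, and Cox7a2 none of the 4 motifs. The windows held 7 CG pairs in Cox7a1 and 2 in Cox8b, against 20 in Cox7a2 and 19 in Cox8a. Cox6a2, the other muscle isoform, had no entry. Promoters were found for 68 of the 83 genes, as 73 sequences. The respiratory factor motif occurred in 24.7% of the 73 sequences and in 4.60% of all 32851 promoters of the table, the ETS motif in 21.9% and 8.86%, the CCAAT motif in 42.5% and 37.4%, and TATAAA in 9.59% and 13.6%. Of the 5 genes without overlap, Uqcrc1 held the respiratory factor motif, at 2 places in chr9:108936398-108936697 on the plus strand, and is shown as an example of that kind of promoter. A match is a run of letters and not a measured site.
Uqcrc1: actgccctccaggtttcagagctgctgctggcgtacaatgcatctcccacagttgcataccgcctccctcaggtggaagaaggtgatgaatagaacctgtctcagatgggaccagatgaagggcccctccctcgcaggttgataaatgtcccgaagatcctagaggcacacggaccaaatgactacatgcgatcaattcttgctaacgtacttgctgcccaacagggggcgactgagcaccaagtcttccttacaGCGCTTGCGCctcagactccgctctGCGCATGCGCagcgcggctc

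The muscle isoforms made up most of their pairs in both genotypes. Cox6a2 took 92.8% ± 0.487 of the summed FPKM of Cox6a2 and Cox6a1 in db/db hearts and 93.2% ± 1.27 in db/+ hearts (SD, n = 5 each). Its share differed by -0.33 percentage points with all libraries and by -0.85 without db/+ 5, where the exact permutation p was 0.048, or 0.29 adjusted over the 6 pairs. Cox8b took 83.7% ± 1.27 of its pair with Cox8a in db/db hearts and 85.1% ± 1.78 in db/+ hearts. Cox7a1 took the smallest share, 68.0% ± 2.22 of its pair with Cox7a2 in db/db hearts and 69.9% ± 2.27 in db/+ hearts. In db/db hearts its share was 67.6%, 68.5%, 65.5%, 66.9% and 71.4%, against 70.9%, 66.1%, 70.1%, 72.1% and 70.1% in db/+ hearts, and these ranges overlap widely. The shares of Cox7a1 and Cox8b differed by -1.92 and -1.37 percentage points, each with an exact two-sided permutation p of 0.21, or 0.59 adjusted over the 6 isoform pairs.

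The minor isoforms had small shares. Cox4i2 made up 2.16% ± 0.287 of its pair with Cox4i1 in db/db hearts and 2.08% ± 0.225 in db/+ hearts. Cox6b2 made up 0.171% ± 0.027 of its pair with Cox6b1 in db/db hearts and 0.140% ± 0.054 in db/+ hearts, and Ndufa4l2 3.81% ± 0.761 of its pair with Ndufa4 in db/db hearts and 4.13% ± 1.01 in db/+ hearts. Adjusted exact permutation p-values over the 6 pairs lay between 0.59 and 0.64, and no pair passed. The smallest unadjusted p that 5 hearts against 5 can give is 0.0079.

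**Figure D3:**
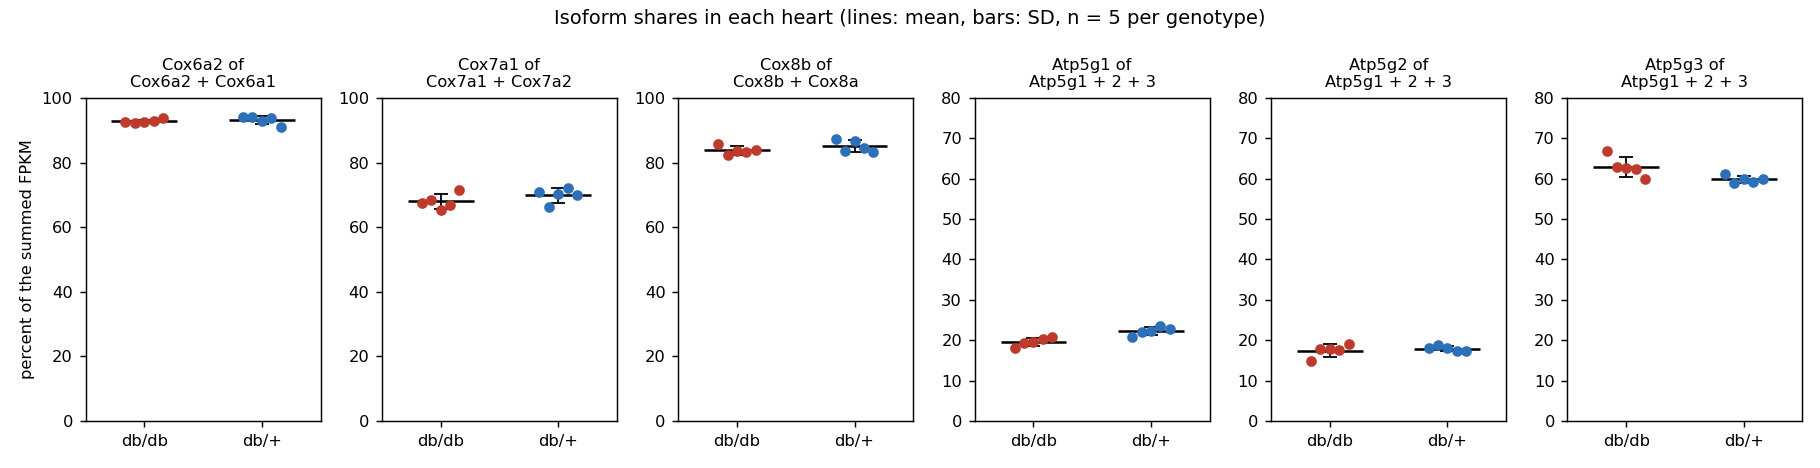
Share of each isoform in the summed FPKM of its pair or trio, in percent, per heart, db/db left and db/+ right, with mean and SD (n = 5 each). Cox7a1 makes up 65.5% or more of its pair in every heart, Cox8b and Cox6a2 more than that, and Atp5g3 makes up 59.0% to 67.0% of the Atp5g trio.

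Complex I, NADH dehydrogenase, is the largest complex. Of its 35 genes 27 had negative log2 fold changes, with a median of -0.06 and no call. Ndufs8, an iron-sulfur subunit on the path of the electrons to ubiquinone, had 174, 146, 159, 176 and 171 FPKM in db/db hearts, against 186, 178, 195, 183 and 218 FPKM in db/+ hearts. The groups lay close but did not overlap, and the log2 fold change was -0.22 (SE 0.072, limma adjusted p = 0.13). Ndufb7, an accessory subunit on the intermembrane face, had 42.1, 37.8, 39.6, 45.5 and 44.1 FPKM in db/db hearts, against 46.1, 46.3, 45.7, 47.5 and 65.7 FPKM in db/+ hearts. The gap between the groups was slim, and db/+ 5 stood far above the other 4 db/+ hearts. Its log2 fold change was -0.25 (SE 0.10, adjusted p = 0.21).

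Ndufs6, a zinc-binding subunit that joins late in assembly, averaged 217.4 ± 15.1 FPKM in db/db hearts and 244.7 ± 17.1 FPKM in db/+ hearts (log2 fold change -0.17, adjusted p = 0.19). Ndufa5, an accessory subunit of the peripheral arm, averaged 222.5 ± 5.38 FPKM in db/db hearts and 247.6 ± 25.2 FPKM in db/+ hearts (log2 fold change -0.15, adjusted p = 0.25). The 3 most abundant genes of the complex were Ndufb9, Ndufa1 and Ndufa6. Ndufb9 averaged 434.8 ± 22.04 FPKM in db/db hearts and 468.5 ± 29.2 FPKM in db/+ hearts, and Ndufa1, a small membrane subunit needed for assembly, 417.5 ± 32.1 FPKM and 435.0 ± 38.2 FPKM in the same order. Ndufa6, of the LYR family, differed least of these, with 408.2 ± 15.9 FPKM in db/db hearts and 414.6 ± 43.3 FPKM in db/+ hearts. The 2 lowest genes, Ndufb2 and Ndufb5, both of the membrane arm, averaged 21.0 ± 1.71 and 41.7 ± 6.46 FPKM in db/db hearts and 21.7 ± 1.82 and 42.9 ± 10.96 FPKM in db/+ hearts.

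Complex II, succinate dehydrogenase, is the complex without a mitochondrially encoded subunit, and its 4 genes split evenly in direction with no call. Sdhc, a membrane anchor, was the one member of the whole set with a positive difference at an unadjusted p under 0.05. Sdhc had 104, 107, 106, 113 and 105.2 FPKM in db/db hearts, against 98.1, 94.0, 96.0, 92.8 and 106 FPKM in db/+ hearts. The 5 db/db hearts lay above 4 of the db/+ hearts, and db/+ 5 lay among them. The log2 fold change was 0.14 (SE 0.053, limma adjusted p = 0.19). Sdhb, the iron-sulfur subunit, averaged 298.4 ± 15.7 FPKM in db/db hearts and 327.0 ± 18.5 FPKM in db/+ hearts (log2 fold change -0.13, adjusted p = 0.24). Sdha, the flavoprotein that oxidizes succinate, averaged 298.0 ± 21.97 FPKM in db/db hearts and 312.8 ± 28.1 FPKM in db/+ hearts, and Sdhd, the other anchor, 305.7 ± 12.4 FPKM and 294.7 ± 11.6 FPKM in the same order. Sdhc, at about a mean of 102 FPKM, was the lowest of the 4, and the other 3 lay close to 300 FPKM.

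Complex III, the cytochrome bc1 complex, differed little: 7 of its 9 genes had negative log2 fold changes, with a median of -0.05 and no call. Uqcrc1, a core protein facing the matrix, had 163, 159, 159, 163 and 168 FPKM in db/db hearts, against 169, 171, 170, 172 and 183 FPKM in db/+ hearts. The groups did not overlap, but by little, and the log2 fold change was -0.09 (SE 0.046, limma adjusted p = 0.32). Uqcr11, a small subunit, averaged 370.4 ± 24.4 FPKM in db/db hearts and 404.7 ± 55.7 FPKM in db/+ hearts, with db/+ 5 highest. The highest levels were those of Uqcrb, which lies near the ubiquinone site, at 437.4 ± 13.6 FPKM in db/db hearts and 455.2 ± 25.0 FPKM in db/+ hearts, and of Uqcrfs1, the Rieske iron-sulfur protein, at 429.9 ± 19.0 FPKM and 433.6 ± 12.97 FPKM in the same order. Cyc1, cytochrome c1, averaged 393.3 ± 21.7 FPKM in db/db hearts and 404.5 ± 28.8 FPKM in db/+ hearts (adjusted p = 0.78). Cycs, cytochrome c, which carries electrons from complex III to complex IV, varied least of all 83 genes over the 10 hearts, with a coefficient of variation of 3.00%. It averaged 248.4 ± 7.16 FPKM in db/db hearts and 243.0 ± 7.24 FPKM in db/+ hearts (log2 fold change 0.03, SE 0.046, adjusted p = 0.76).

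Complex V, the ATP synthase, had 13 of 15 genes with negative log2 fold changes, a median of -0.09 and no call. Atp5g1, one of 3 genes for the c subunit of the membrane rotor, had 81.4, 77.8, 85.9, 98.6 and 83.9 FPKM in db/db hearts, against 91.7, 107, 94.2, 104 and 106 FPKM in db/+ hearts. Only db/db 4 lay inside the db/+ range. The log2 fold change was -0.23 (SE 0.074, limma adjusted p = 0.12). Atp5b, the catalytic beta subunit, averaged 621.6 ± 31.7 FPKM in db/db hearts and 667.6 ± 15.1 FPKM in db/+ hearts (log2 fold change -0.10, adjusted p = 0.27). Atp5h, subunit d of the stalk, averaged 444.6 ± 36.5 FPKM in db/db hearts and 490.4 ± 33.4 FPKM in db/+ hearts (log2 fold change -0.14, adjusted p = 0.29). Atp5a1 averaged 808.1 ± 43.0 FPKM in db/db hearts and 824.8 ± 69.0 FPKM in db/+ hearts, and the lowest gene of the complex, Atp5l for subunit g, 49.5 ± 3.18 FPKM and 51.2 ± 1.65 FPKM in the same order.

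The Atp5g genes encode the same mature c subunit behind different import sequences. Atp5g3 supplied 63.0% ± 2.51 of their summed FPKM in db/db hearts and 59.8% ± 0.886 in db/+ hearts. Atp5g1 supplied 18.2%, 19.4%, 19.5%, 20.2% and 20.8% in db/db hearts, against 20.8%, 22.1%, 22.2%, 23.5% and 22.7% in db/+ hearts. The top db/db share nearly equalled the bottom db/+ share. The trio's shares were not among the tested pairs and are given as a description, with Atp5g2 at 17.4% ± 1.55 in db/db hearts and 17.9% ± 0.631 in db/+ hearts. How reads shared between such copies, or with processed pseudogenes, were assigned is not given in the sources used here.

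Summed over each complex, nuclear subunit FPKM was lower in db/db hearts by mean for all 5 complexes, most so for complex IV. Complex IV summed to 5598, 5163, 5601, 6014 and 5613 FPKM in db/db hearts, against 5938, 6166, 6150, 5869 and 6732 FPKM in db/+ hearts. The groups overlapped through db/db 4, and the ratio of means was 0.907, or 0.928 without db/+ 5. Complex I summed to 6188 ± 265 FPKM in db/db hearts and 6485 ± 351 FPKM in db/+ hearts, a ratio of 0.954. The ratios were 0.978 for complex II, 0.970 for complex III and 0.946 for complex V. Without db/+ 5 the ratios were 0.977 for complex I, 0.981 for complex II, 0.989 for complex III and 0.955 for complex V. Sums over members are given without a test. Extreme values often fell in the same libraries: db/+ 5 held the highest value of 40 of the 83 genes, and db/db 2 the lowest value of 42. Without both libraries, 52 of the 83 genes had negative log2 fold changes, the median was -0.02, and Cox7a1 did not pass (-0.23, limma adjusted p = 0.073). Both libraries were picked after these values were seen. Leaving them out favours a smaller difference, so no conclusion is drawn from that fit.

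The mitochondrially encoded subunits lay on the other side of 0. All 13 protein-coding transcripts of the mitochondrial genome, which encode the core of complexes I, III, IV and V, had positive log2 fold changes, with a median of 0.21 and no call. Their share of FPKM was lowest in db/+ 5, the library with the highest sum over the 83 nuclear subunit genes. FPKM is scaled to the total of each library, so these shares are not independent of each other, and the part of the mitochondrial share in the nuclear values was not tested beyond the fits given here. Of nuclear FPKM alone, the subunit genes took 10.02% to 10.9% in db/db hearts and 10.6% to 11.2% in db/+ hearts. With the mitochondrial share as a covariate, 48 of the 83 log2 fold changes were negative, with a median of -0.01, and Cox7a1 stood at -0.27 with an adjusted p of 0.078.

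**Figure D4:**
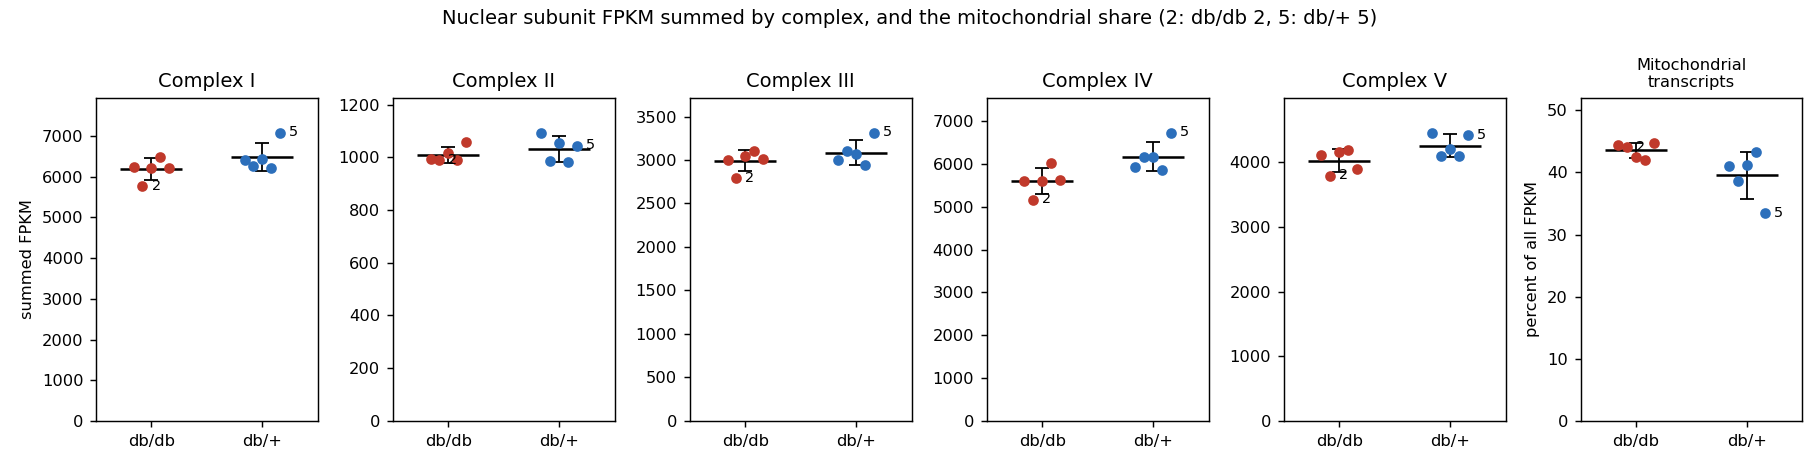
FPKM summed over the nuclear subunit genes of each complex, and the mitochondrial transcripts' percent of all FPKM, per heart, db/db left and db/+ right, with mean and SD (n = 5 each). The library db/+ 5 has the highest complex IV sum, 6732 FPKM, and the lowest mitochondrial share, 33.5%, and db/db 2 has the lowest complex IV sum, 5163 FPKM.

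Genes that build or serve the chain held no call either. Of 49 assembly factors, 28 had negative and 21 positive log2 fold changes, with a median of -0.04, and at an unadjusted p under 0.05, 7 were lower and 2 higher. Of 13 genes of coenzyme Q synthesis, 9 were negative and 4 positive, with a median of -0.07 and 2 lower at an unadjusted p under 0.05. Of 4 subunit or regulator genes that the symbol rule leaves out, 2 were negative and 2 positive, with 1 lower at an unadjusted p under 0.05. These counts stand against the 11.9% lower and 7.33% higher over all tested genes. Among the 13 mitochondrial transcripts 7 were higher at an unadjusted p under 0.05.

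The m6A maps came as 1 list of peaks per heart, called by the authors on immunoprecipitated over input RNA, with 8468 to 15618 distinct peaks in db/db hearts and 12395 to 20048 in db/+ hearts. m6A sits mostly near stop codons and in 3′ untranslated regions, where it is read by proteins that act on the stability and translation of the RNA. Of the 83 subunit genes, 66 had a peak in at least 1 heart, 79.5% against 72.7% of all tested genes. In all 10 hearts a peak was found for 34, 41.0% against 20.2%. A further 19 genes had one in 5 to 9 hearts and 13 in 1 to 4 hearts, and 17 had none. By heart, 41 to 58 subunit genes had a peak in db/db hearts and 46 to 58 in db/+ hearts. The subunit genes are also among the most abundant transcripts of these hearts, and the part of their level in these shares was not tested.

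The peaks were frequent but weak. The median fold of a subunit gene's peak, the authors' ratio of immunoprecipitated to input signal, was 1.61 to 2.07 in a db/db heart and 1.67 to 1.97 in a db/+ heart. The medians over all peaks of the same lists were 2.75 to 3.80 in db/db hearts and 3.18 to 3.83 in db/+ hearts. A peak of these short transcripts covered a median of 20.3% to 25.1% of its transcript in db/db hearts and 20.2% to 23.7% in db/+ hearts, against 6.20% to 7.24% and 5.70% to 6.94% over all peaks. Of the 66 genes with a peak, 43 had one annotated to both coding and 3′ untranslated sequence, 65.2% against 35.0% of tested genes with a peak. A peak in the 3′ untranslated part alone was found in 46, 69.7% against 77.4%, and one in coding sequence alone in 16, 24.2% against 49.1%. A peak that touched the 5′ untranslated part was found in 9, 13.6% against 8.25%.

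The counts by complex are given without a test. Peaks in all 10 hearts were found for 17 of 35 genes of complex I, 2 of 4 of complex II, 5 of 9 of complex III, 4 of 18 of complex IV and 5 of 15 of complex V, and for Cycs. For complex IV this is 22.2%, near the 20.2% of all tested genes. In complex IV no heart had a peak in Cox4i1, Cox6b2, Cox7a2, Cox8a, Cox8b or Ndufa4l2. Cox7a1 had one in 3 db/db and 4 db/+ hearts, at its 3′ end in chr7:30185964-30186078, with folds of 1.92, 1.52 and 1.63 in db/db hearts and 1.54, 1.44, 1.42 and 1.33 in db/+ hearts. Cox6a2, the most abundant of all 83, had a peak in 2 db/db and 3 db/+ hearts with a median fold of 1.28. Cox7a2l, Cox7b, Cox7c and Cox6c were the 4 genes of the complex with a peak in every heart.

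Ndufb3, a membrane-arm subunit of complex I, had the highest median fold of the genes with a peak in every heart, 8.57, with the peak over its stop codon within chr1:58591243-58595964. Its fold was 7.62, 8.84, 5.62, 5.44 and 13.7 in db/db hearts, against 14.1, 7.62, 9.21, 10.1 and 8.29 in db/+ hearts. The groups overlapped between 7.62 and 13.7, with db/db 3 and db/db 4 below every db/+ heart and db/+ 1 above every db/db heart. Sdhd had a peak in its 3′ untranslated region in all hearts, at folds of 3.42 to 4.95 in db/db hearts and 4.19 to 5.79 in db/+ hearts. Uqcrfs1 and Uqcrc2 followed, with peaks in their 3′ untranslated regions and median folds of 4.20 and 3.85. In db/+ 5 both exceeded Ndufb3, with folds of 25.4 and 11.4. The others with a peak in all hearts and the highest median folds were Cox7a2l with 3.38, Ndufa6 with 3.23, Atp5h with 3.20, Ndufb7 with 3.18, Atp5k for subunit e with 3.14, Ndufs1, the largest iron-sulfur subunit of complex I, with 3.09, Cox7c with 3.01, Atp5j for coupling factor 6 with 2.98, Ndufs4 with 2.85, Ndufa10 with 2.84 and Sdhc with 2.79.

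Atp5g1 had the highest fold of all. Its peak lay in annotated 3′ untranslated sequence at chr11:96072063-96072462, on the minus strand, and was found in 4 db/db and 4 db/+ hearts. The longest transcript listed for this peak had 4715 nt, and the median cover was 4.45%. FPKM is given per gene, so the part of this transcript in the Atp5g1 level is unknown. The fold was 23.3, 26.6, 18.4 and 22.9 in db/db 1 to 4, against 5.06, 20.8, 3.97 and 8.59 in db/+ 1, 3, 4 and 5. The 4 db/db values lay high together, the db/+ values were spread, and db/+ 3 lay among the db/db hearts. No peak was listed there in db/db 5, which has the shortest list, or in db/+ 2. Folds were compared within a list by their rank: the Atp5g1 peak stood at a median percentile of 99.2, and that of Ndufb3 at 90.4. A difference in fold between genotypes was not tested.

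**Figure D5:**
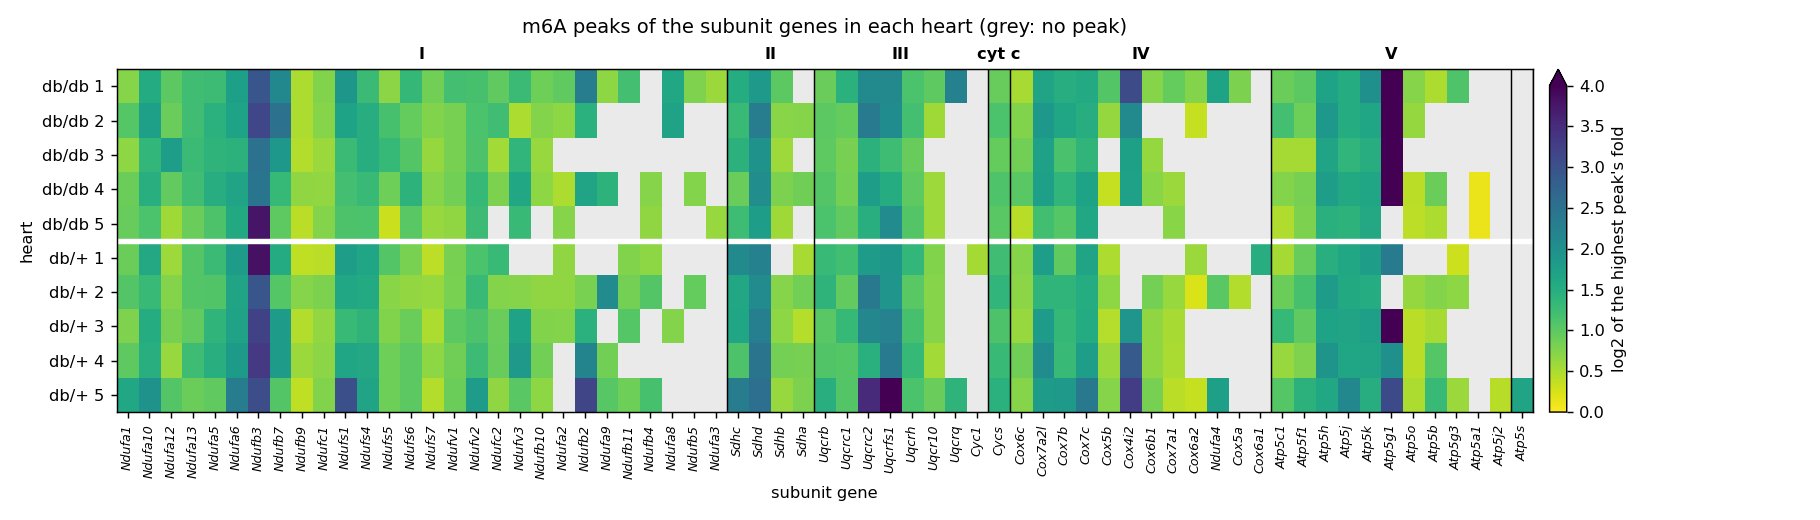
Highest m6A peak fold of the subunit genes with a peak, with 1 gene of complex I not drawn, on a log2 colour scale, in each heart, with db/db hearts in the upper rows, db/+ hearts in the lower rows and grey where no peak was listed. Columns run by complex and, within it, from genes with a peak in all 10 hearts to those with a peak in 1, and Ndufb3 and Atp5g1 stand out as dark columns.

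Merged over hearts where peaks overlapped by at least 1 base on one strand, the subunit genes held 89 regions of 15747. Of these, 35 were present in all 10 hearts, 39.3% against 14.4% of all regions. A region was counted as differing when 4 or more hearts of one genotype had a peak there and no more than 1 heart of the other did. That held for 1 member region with more db/db hearts, where the background over all regions was 0.578%, and for 2 with more db/+ hearts, where it was 1.11%. A coding region of Uqcrc2, a core protein of complex III, at chr7:120649390-120651252 had a peak in 4 db/db hearts and 1 db/+ heart, with a median fold of 1.33. A 3′ untranslated region of Atp5c1, the gamma shaft of complex V, at chr2:10056016-10056787 had one in 1 db/db heart and 4 db/+ hearts, with a median fold of 1.35. At chrX:20615326-20615472, a region at the 3′ end of Ndufb11, a membrane-arm subunit of complex I, also had one in 1 db/db heart and 4 db/+ hearts, with a median fold of 1.85.

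Each of the 3 had a two-sided Fisher's exact p of 0.21, and 1.00 after adjustment over all regions. No region in the whole set passed that adjustment: the smallest exact p that 5 hearts against 5 can give is 0.0079, and 106 regions (0.673%), none of them in a subunit gene, had an unadjusted p under 0.05. Without db/+ 1, db/+ 2 or db/+ 5, 1 region was counted in place of 3. Uqcrc2 and Atp5c1 each had another region with a peak in all 10 hearts. By gene in place of region, none of the 8070 genes with a peak passed, 54 (0.669%) had an unadjusted p under 0.05, and no subunit gene was among them. The median folds of the 3 regions were below the median fold of every list.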

How the data were processed

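Input and m6A-immunoprecipitated RNA of 5 db/db and 5 db/+ hearts were sequenced, and groups were taken from the sample titles. HISAT2 2.1.0, Trimmomatic 0.32, FastQC 0.11.7 and the build mm9 are named in the submitters' processing notes, with no role given. For the FPKM program and the peak caller, a name is not given in the sources used here. Gene positions in the files fit GRCm38 instead: of the 83 subunit genes, 78 start or end within 50 bp of the RefSeq GRCm38.p6 gene. Gene positions are printed as deposited by the authors and counted from 1. An m6A region runs from the first to the last base of its peaks merged over hearts, with 1 added to the deposited start. Promoter windows are those of RefSeq.

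The authors deposited FPKM for the 10 input libraries and, per the file headers, a peak list per heart with the p-value and the fold, a ratio of immunoprecipitated to input signal, of each peak. Peak p-values and folds, as the authors' caller gave them, reached 0.0051 and 241. Of 146953 peak lines, 4959 repeated the same position, blocks and gene and were removed. Overlapping peaks at other positions were kept.

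The 10344 genes with a mean of 1 FPKM or more were fitted as log2(FPKM + 1), db/db minus db/+, with limma 3.58.1 in R 4.3.3 (eBayes with a trend), with Benjamini-Hochberg adjustment over all of them and a threshold of 0.05. For low genes, adding 1 makes a fold change look smaller. Isoform shares were tested by exact permutation (two-sided, 252 assignments of hearts), adjusted over 6 pairs, and peaks with Fisher's exact test. P-values measure the spread between the 5 hearts of a genotype as the labels number them. Promoters came from RefSeq, GRCm38.p6, matched by symbol, synonym or Ensembl ID.

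The members and lists were chosen with earlier results of these data known. Genes named were every called gene, the isoform families, complex II and cytochromes, in each other complex the 3 highest, the 2 lowest and the 3 with the smallest p, up to 15 genes by hearts with a peak and fold, and genes with a differing region. Ndufa5, Cox5b, Cox7a2l, Cox7b, Cox7c, Cox6c and Atp5s were added after their values were seen. The single values of 1 gene are not reported here; it is kept in all counts and sums. Alternatives tried were the pseudocount, the filter on low values, scalings, the trend, the mitochondrial share as a covariate, a replicate block, leaving out libraries, and peak and overlap thresholds.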

Additional observations from a re-analysis of the deposited data

Results flagged for a closer look

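Within a genotype, a heart was singled out where its gap to the nearest other heart, as a share of the group's range, exceeded Dixon's critical value for 5 samples at the 95% level. Of 192 groups of 5 values looked at, 12 met this, and chance gives about 1 in 20 groups. The library db/+ 5 accounted for 9 of the 12. It was high for Cox4i1 at 553 FPKM, with the other 4 db/+ hearts at 424 to 428, for Cox6a1 at 120 FPKM (63.7 to 79.8), for Cox7a2l at 225 FPKM (193 to 203) and for Ndufa5 at 291 FPKM (227 to 242). It was also high for Ndufb7 at 65.7 FPKM (45.7 to 47.5), for Ndufs7, another iron-sulfur subunit of complex I, at 165 FPKM (124 to 134), for Uqcrc1 at 183 FPKM (169 to 172) and for the complex I sum at 7087 FPKM (6208 to 6448). For Cox6c alone db/+ 5 was low, at 83.1 FPKM, with the other db/+ hearts at 110.1 to 119.8. This library also had the lowest mitochondrial share, 33.5%, and the most peaks, 20048. Its marker sums were the highest of all hearts for general cardiomyocytes (11977 FPKM), white adipocytes (171 FPKM) and brown adipocytes (175 FPKM). The part of any of these in the flagged values was not tested.

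The other 3 lay in other libraries. Ndufa8, an accessory subunit of complex I, was high in db/db 4 at 310 FPKM (the other db/db hearts 274 to 284), and Ndufs3, a core subunit of complex I, was high in db/+ 1 at 114 FPKM (the other db/+ hearts 100.1 to 103.5). The share of Ndufa4l2 in its pair was high in db/db 2 at 5.12% (the other db/db hearts 3.25% to 3.77%).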

How the results depend on the processing

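Of the 83 genes, none passed with a replicate block, with library medians or nuclear sums equal, with the mitochondrial share as a covariate, or in 2 fits chosen after seeing the data, without db/+ 5 and db/db 2 together and with nuclear sums equal without db/+ 5; in these fits the log2 fold change of Cox7a1 lay between -0.27 and -0.23. With quantile normalization 2 passed, Cox7a1 and Cox8b, and with 1 library left out 0 to 1. Calls over all genes numbered 72 with the block, 274 with library medians equal, 137 with the covariate and 192 without both libraries. They ran from 112 to 317 with 1 library left out. The numbers over all genes with quantile normalization or nuclear sums equal are not given here. The member counts of those fits are therefore not set against a background. Members without overlap numbered 1 with medians equal, 2 with nuclear sums equal, with or without db/+ 5, and 3 with quantile normalization. The shares over all tested genes in these fits were not counted. Replicate numbers did not pair the hearts: correlations of same-numbered hearts lay between -0.11 and 0.03.

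Small log2 differences changed sign. Cox6a2 stood at 0.036 with quantile normalization. With the covariate Cox4i1 stood at 0.099, Cox6a1 at 0.28, Cox8a at 0.13, Cyc1 at 0.063 and Uqcr11 at 0.054. Without db/+ 5 and db/db 2, Cox4i1 was at 0.030, Cox6a1 at 0.11 and Cyc1 at 0.024, and with nuclear sums equal without db/+ 5 these 3 were at 0.043, 0.11 and 0.010. With 1 library left out, Atp5g3 ran from -0.019 to 0.063, Cox4i1 from -0.068 to 0.028, Cox4i2 from -0.060 to 0.051 and Cox6a1 from -0.13 to 0.099, and the share differences, in percentage points, from -0.028 to 0.14 for Cox4i2 and from -0.65 to 0.019 for Ndufa4l2. The causes were not tested.

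With peaks of fold at least 2 and p at most 1e-05, 14 members had a peak in every heart, and 1 region differed. At a fold of at least 5, 10 members had a peak and 1 had it in every heart. A difference of at least 3 hearts gave 6 regions, and leaving out 1 heart 1 to 4. These counts are given without the shares over all genes or regions at the same settings, so they are not set against a background. FPKM give no read counts, so what depth limits is unknown, and the shortest peak list, of db/db 5, lowers what can be shared by all hearts.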
